A study of Mus musculus with 23 samples.

Results

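The genes described here encode the proteasome, and they were chosen by symbol: Psma, Psmb, Psmc, Psmd, Psme, Psmf or Psmg followed by a number. The rule found 50 of the 19938 genes tested. Of these, 48 are proteasome subunits, activators, assembly chaperones or the inhibitor PI31, and they are described below as 5 interferon-inducible genes (Psmb8, Psmb9, Psmb10, Psme1 and Psme2) and 43 other genes. Psmc3ip and Psme3ip1 match the symbol rule but are not subunits, and they are left out of all counts. The cells were macrophages grown from C57Bl/6 wild-type bone marrow in M-CSF (10 ng/mL, 6 days), and their RNA was measured on 23 arrays in 6 groups. They received stearic acid (SA), which is saturated, or oleic acid (OA), an unsaturated acid of equal chain length with a double bond, each at 250 µM for 20 h or for 5 h (n = 4 arrays for each acid and time). Both acids were carried on bovine serum albumin (BSA). Other wells received 1 ng/mL of lipopolysaccharide (LPS), a bacterial product sensed by TLR4, for 5 h (n = 4), and BSA alone at 125 µM for 5 h was the vehicle (n = 3). For LPS and vehicle the sample labels give 5 h and the series text 4 h. There was no 20 h vehicle group. Replicates are wells in the labels and biological replicates in the series text, so the spread behind the p-values may be technical.

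The proteasome degrades ubiquitin-tagged proteins. Its 20S core is a barrel of alpha and beta rings, and the beta rings hold the catalytic subunits Psmb5 (chymotrypsin-like), Psmb6 (caspase-like) and Psmb7 (trypsin-like). The 19S cap binds tagged proteins, unfolds them with a ring of ATPases and feeds them into the core. Interferons and other inflammatory signals induce 3 replacement catalytic subunits, Psmb8 for Psmb5, Psmb9 for Psmb6 and Psmb10 for Psmb7, which form the immunoproteasome. They also induce Psme1 and Psme2, the subunits of the PA28 activator. Immunoproteasomes are known for producing peptides that the transporter Tap1-Tap2 carries to MHC class I molecules for display to T cells, and macrophages are among the cells that use them. Levels of constitutive subunits are known to follow the transcription factor NRF1, encoded by Nfe2l1, when proteasome capacity falls short.

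Psmb8 and Psmb9 lie beside the Tap genes in the MHC region of chromosome 17. The starts of Psmb9 and Tap1 are 226 bases apart on opposite strands, so that they share a promoter region, and that of Psmb8 lies 10865 bases from the start of Psmb9. Psme1 and Psme2 lie on chromosome 14, with starts 12527 bases apart. Promoters of 2 inducible genes and of 2 constitutive catalytic genes are shown, because their RNA levels are set against each other below. Each line gives the 250 bases before the start, from RefSeq (GRCm38.p6), with matches to an interferon response element (GAAA, any 2 bases, GAAA), a gamma-activated site (TTCNNNGAA), an NF-kB site (GGGA, any base, TTTCC) or an antioxidant response element (TGACNNNGC) in capitals.
Psmb8: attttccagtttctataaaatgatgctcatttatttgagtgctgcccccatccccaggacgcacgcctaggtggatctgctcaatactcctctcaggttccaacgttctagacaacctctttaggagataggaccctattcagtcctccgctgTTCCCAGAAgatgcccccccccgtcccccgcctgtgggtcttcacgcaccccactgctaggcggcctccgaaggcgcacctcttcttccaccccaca
Psmb9: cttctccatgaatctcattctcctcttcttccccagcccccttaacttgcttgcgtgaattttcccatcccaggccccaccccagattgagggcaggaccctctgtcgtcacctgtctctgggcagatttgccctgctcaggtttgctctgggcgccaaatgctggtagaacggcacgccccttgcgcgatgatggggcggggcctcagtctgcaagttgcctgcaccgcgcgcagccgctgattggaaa
Psmb5: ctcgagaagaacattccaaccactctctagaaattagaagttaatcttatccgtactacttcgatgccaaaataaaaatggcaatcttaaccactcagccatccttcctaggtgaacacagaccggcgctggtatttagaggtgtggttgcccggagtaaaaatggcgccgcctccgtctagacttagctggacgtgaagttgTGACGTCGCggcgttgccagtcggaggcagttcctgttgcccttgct
Psmb6: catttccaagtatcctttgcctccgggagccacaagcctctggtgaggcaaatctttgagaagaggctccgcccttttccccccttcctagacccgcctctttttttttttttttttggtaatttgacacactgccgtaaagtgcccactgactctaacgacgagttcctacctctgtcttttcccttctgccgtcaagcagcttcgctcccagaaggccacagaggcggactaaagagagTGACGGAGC
The Psmb8 stretch is chr17:34197945-34198194 on the plus strand, and its gamma-activated site begins at -97 relative to the start. The Psmb9 stretch is chr17:34187331-34187580 on the minus strand and holds none of these 4 motifs. The stretches of Psmb5 (chr14:54617996-54618245, minus strand) and Psmb6 (chr11:70525107-70525356, plus strand) each hold an antioxidant response element, beginning at -47 in Psmb5 and at -9 in Psmb6. Motifs were searched on both strands, from 250 bases before to 50 bases after the start, in the 40 of 48 genes that the RefSeq table holds. The interferon response element was in 1 of the 5 inducible genes, Psme1, where it begins 10 bases after the start, in 4 of 35 other genes and in 3.99% of all 27025 promoters. The gamma-activated site was in 1 of 5, in 2 of 35 and in 9.55% of all promoters. No member held the NF-kB site, which 0.466% of all promoters hold. The antioxidant response element was in 0 of 5, in 6 of 35 (17.1%) and in 14% of all promoters. A match is a match of letters only.

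All arrays had medians between 3.98 and 4.12 on the deposited log2 scale, and the number of arrays limits the precision. Replicate 2 of SA at 20 h stood apart. Its gene deviations from the group mean had an SD of 0.215, while its 3 companions had SDs of 0.153 to 0.161. The mean log2 level of the 5 inducible genes was 7.78 on it and 8.21 to 8.50 on those 3 arrays. Values without it are given below for the inducible genes, except in the interaction, and for some of the calls it decides. Of 10 macrophage markers 9 were analysed here, and their mean level per array was 8.95 to 9.08 with SA at 20 h, 9.86 to 9.89 with OA at 20 h, 9.50 to 9.54 with SA at 5 h, 9.84 to 9.87 with OA at 5 h, 9.91 to 10.0 with LPS and 9.77 to 9.86 with BSA. Mean levels of markers of other cells were 4.34 to 4.60 (dendritic cells, 10 genes), 2.96 to 3.28 (lymphocytes and NK cells, 11 genes) and 5.80 to 6.75 (neutrophils, 10 genes) over all groups. In every group 6, 9 and 3 genes of these lists lay below the median of tested genes. The neutrophil list held S100a8 (11.1 to 11.6 over all arrays), S100a9 (10.5 to 11.3), Ngp (7.08 to 8.64), Camp (6.56 to 7.98) and Ltf (5.58 to 7.23). It also held Ly6g (2.10 to 4.54) and Elane (3.26 to 4.10). The dendritic list held Itgax (9.02 to 9.84). In cultures measured in bulk, fewer cells of a type and less RNA per cell cannot be told apart. Of the 48 genes, the testis-specific Psma8 and the thymus-specific Psmb11 had no group mean above the lowest array median plus 1, so the size of their changes is uncertain.

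LPS raised all 5 inducible genes, by 0.57 to 1.02 on the log2 scale. Psmb8 had log2 levels of 8.45, 8.44, 8.54 and 8.59 with LPS, against 7.57, 7.60 and 7.70 with BSA. The log2 change was 0.88 ± 0.11 (SE), 1.84-fold, with an adjusted p of 5.08e-07 in limma. Psmb9 had 9.57, 9.51, 9.47 and 9.81 with LPS, against 8.66, 8.53 and 8.52 with BSA, a log2 change of 1.02 ± 0.16 (SE), 2.03-fold (adjusted p = 2.51e-05). The lowest LPS array lay above the highest BSA array for both of these genes. Psmb10 had 9.48, 9.44, 9.58 and 10.10 with LPS, against 8.79, 8.80 and 8.86 with BSA, a log2 change of 0.83 ± 0.18 (SE, adjusted p = 7.73e-04). LPS replicate 4 was the highest of the group, and the other 3 also lay above all BSA arrays.

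The PA28 subunits also rose with LPS. Psme1 had 9.34, 9.20, 9.33 and 9.45 with LPS, against 8.82, 8.78 and 8.67 with BSA, and the log2 change of 0.57 ± 0.09 (SE) was the smallest of the 5 (adjusted p = 4.74e-05). Psme2 had 9.42, 9.42, 9.61 and 9.54 with LPS, against 8.74, 8.55 and 8.59 with BSA, a log2 change of 0.87 ± 0.12 (SE, adjusted p = 2.12e-06). The LPS and BSA arrays of these genes did not overlap. A near copy of Psme2, Psme2b, could share signal with its probe set. Over all genes tested, 9.22% were called risen with LPS, and 12.3% had every LPS array above every BSA array. All 5 stayed called under all 16 alternatives of this comparison, which include leaving out each array. Among other cells' markers, 2 of 10 neutrophil, 1 of 7 mast cell and 1 of 8 stromal genes rose with LPS, and none of 10 dendritic or 11 lymphocyte and NK cell genes did. Their part in the result was not tested.

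**Figure D1:**
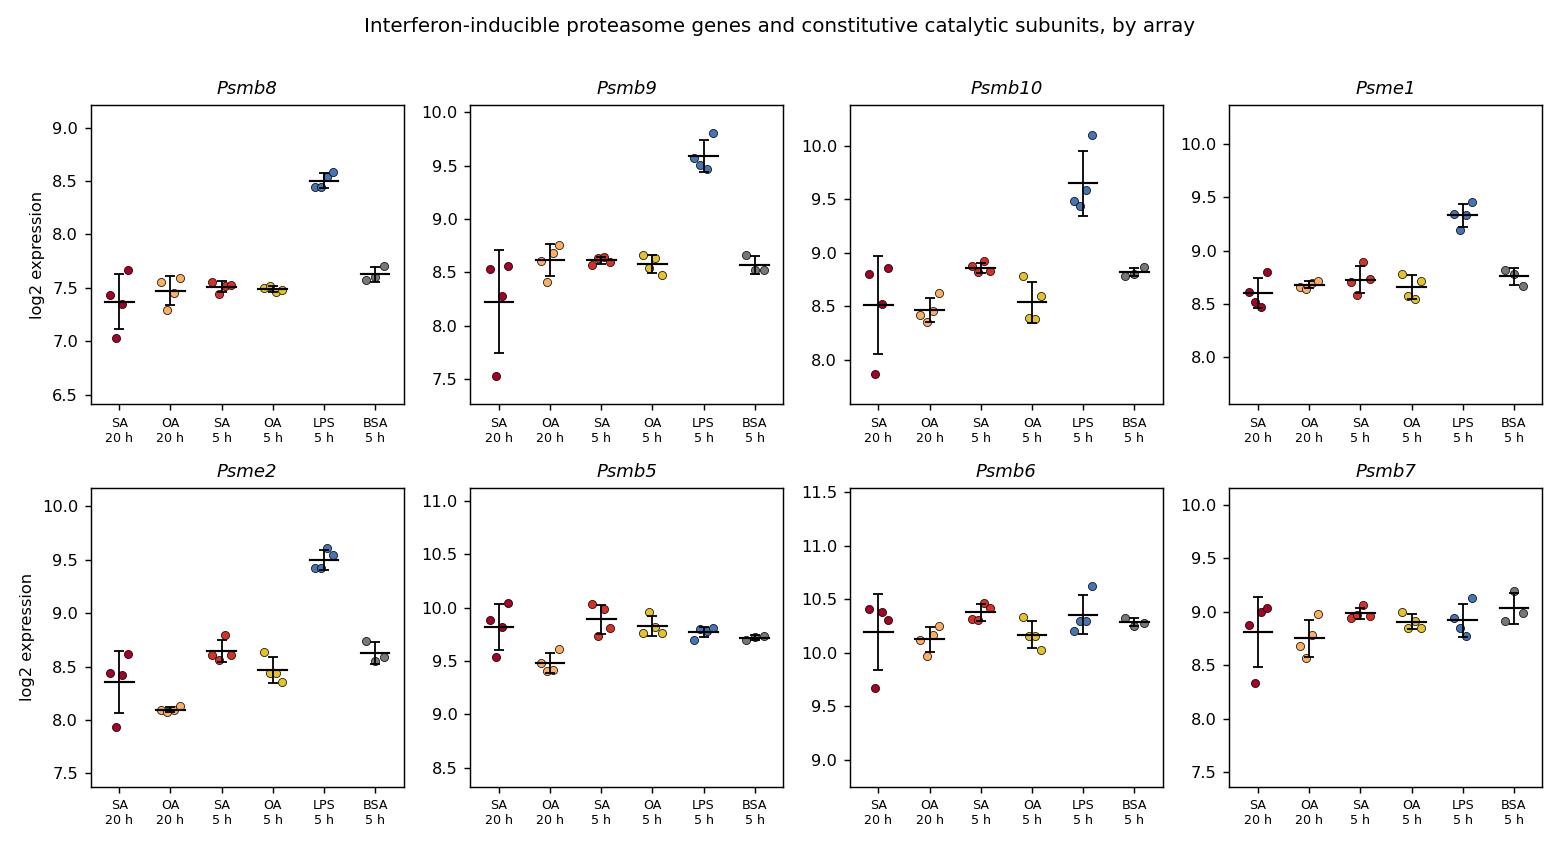
Log2 expression of the 5 inducible genes and of the constitutive catalytic subunits Psmb5, Psmb6 and Psmb7 on each array (points), with group means (lines) and SD (bars), by treatment and time on the horizontal axis. For the inducible genes all 4 LPS arrays lie above all 3 BSA arrays, and one SA array at 20 h lies low in Psmb9, Psmb10 and Psme2.

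None of the 3 constitutive catalytic subunits was called with LPS, and none had an unadjusted p under 0.05 in limma. Psmb5 had log2 levels of 9.70, 9.79, 9.78 and 9.81 with LPS, against 9.70, 9.73 and 9.73 with BSA, and its change of 0.05 was not called (95% interval -0.16 to 0.26, adjusted p = 0.803). Psmb6 changed by 0.07 (-0.21 to 0.35, adjusted p = 0.809) and Psmb7 by -0.11 (-0.38 to 0.16, adjusted p = 0.65). Each of these intervals lies below the smallest estimate among the inducible genes. Of all 43 other proteasome genes 4 rose and 1 fell with LPS, with 9.22% of all genes risen and 13.2% fallen. The median log2 change of the 43 was 0.02, against 0.87 for the 5 inducible genes and -0.02 for all genes.

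The 4 that rose with LPS, a share close to the 9.22% of all genes, were of different roles. Psmd5, a chaperone of 19S base assembly, rose by 0.54 ± 0.11 (SE, adjusted p = 4.49e-04), with levels of 6.01, 6.14, 6.25 and 6.15 with LPS, against 5.35, 5.60 and 5.84 with BSA. Psme4, which encodes the activator PA200, rose by 0.51 ± 0.08 (adjusted p = 3.96e-05), and its levels were 7.76, 7.81, 8.04 and 7.86 with LPS, against 7.32, 7.36 and 7.41 with BSA. In both genes the LPS and BSA arrays did not overlap. The alpha subunit Psma6 rose by 0.32 ± 0.09 (adjusted p = 0.00722) and the 19S lid subunit Psmd11 by 0.27 ± 0.09 (adjusted p = 0.0268). The alpha subunit Psma1 fell by 0.28 (adjusted p = 0.0286). The call of Psmd11 was kept in 11 of 16 alternatives and that of Psma1 in 8. Psmd11 was lost without BSA replicate 1 (0.28, adjusted p = 0.0588), BSA replicate 2 (0.22, adjusted p = 0.145) or LPS replicate 2 (0.21, adjusted p = 0.106). Psma1 was lost when any single BSA array was left out, or without LPS replicates 1, 2 or 3, with adjusted p between 0.0584 and 0.0867.

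By role, the changes with LPS lay between -0.35 (Psma8) and 0.32 (Psma6) in the 8 genes of the alpha ring, between -0.11 and 0.20 in the 7 constitutive beta genes, and between -0.11 and 0.11 in the 6 ATPases of the 19S base. The 3 catalytic subunits of the immunoproteasome lay between 0.83 and 1.02. None of the ATPases, which unfold the substrate, and none of the constitutive beta genes was called with LPS (limma, 0 of 6 and 0 of 7, with 0 and 1 at an unadjusted p under 0.05). The genes that fell most without being called were Psma8 (-0.35, adjusted p = 0.257) and Psmg2, a chaperone of alpha ring assembly (-0.31, adjusted p = 0.243).

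**Figure D2:**
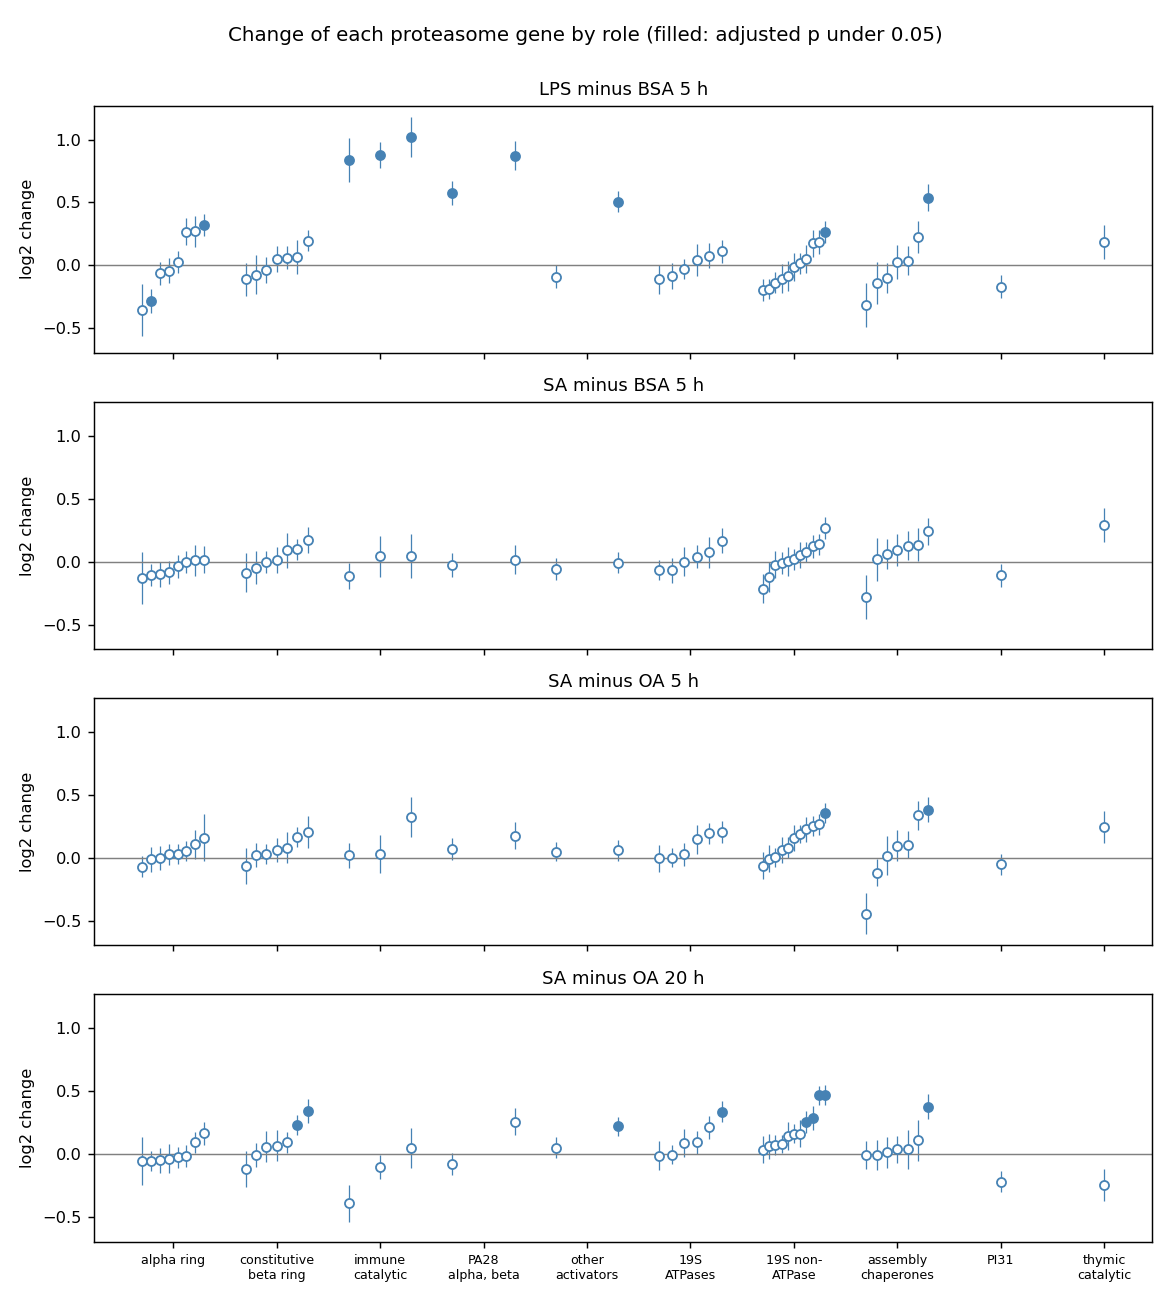
Log2 change with SE of each of the 48 proteasome genes, by role, in 4 comparisons, with genes sorted by size within a role and filled points for adjusted p under 0.05. The immune catalytic and PA28 points stand highest with LPS, and 4 of the 9 filled points of SA minus OA at 20 h are in the 19S non-ATPase group.

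SA did not raise the inducible genes as LPS did at 5 h, the time that the labels give for both. Set against LPS, all 5 were lower with SA at 5 h, by 0.60 to 0.99 on the log2 scale, while 9.11% of all genes were called fallen. Psmb8 had 7.56, 7.44, 7.52 and 7.53 with SA, against 8.45, 8.44, 8.54 and 8.59 with LPS, and its log2 change was -0.99 ± 0.10 (SE, adjusted p = 1.79e-08). The changes were -0.98 for Psmb9, -0.79 for Psmb10, -0.60 for Psme1 and -0.85 for Psme2, with adjusted p between 8.56e-07 and 5.60e-04. The arrays of SA and LPS did not overlap for any of the 5, as for 9.31% of all genes in that direction. These values rest on the same LPS arrays as those against BSA. Of the 43 other genes, 3 were lower with SA than with LPS (Psme4, -0.52; Psma6, -0.32; Psmd5, -0.30). Psmd8 (0.27) and Psmd1 (0.26), both 19S subunits, were higher, where 13% of all genes were called risen. The call of Psmd5 was lost without 5 single arrays (LPS replicates 2, 3 and 4, SA replicates 2 and 3, adjusted p up to 0.0991), and that of Psmd8 without SA replicate 3 (0.22, adjusted p = 0.053).

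Against vehicle neither acid moved a proteasome gene past the threshold at 5 h. With SA 0 of 48 genes were called in limma, where 1.94% of all genes were called risen and 1.39% fallen, and 3 of the 43 and 0 of the 5 had an unadjusted p under 0.05. With OA 0 of 48 were called, where 0.0201% of all genes were called risen and 0.0502% fallen, and 0 had an unadjusted p under 0.05. Psmb9 had levels of 8.57, 8.64, 8.64 and 8.60 with SA, 8.67, 8.54, 8.64 and 8.48 with OA, and 8.66, 8.53 and 8.52 with BSA. Its 95% interval was -0.29 to 0.37 for SA against BSA and -0.32 to 0.34 for OA against BSA. All 3 groups overlap in this gene. For SA the upper bounds of the other inducible genes were 0.11 for Psmb8, 0.40 for Psmb10, 0.17 for Psme1 and 0.26 for Psme2, and those of Psmb5, Psmb6 and Psmb7 were 0.38, 0.37 and 0.23.

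SA and OA, which differ by the double bond, were also compared directly at 5 h. None of the 5 inducible genes was called (limma, 0 of 5 also at an unadjusted p under 0.05), with changes between 0.02 for Psmb8 and 0.33 for Psmb10. Psmb10 had 8.87, 8.82, 8.92 and 8.83 with SA, against 8.78, 8.39, 8.38 and 8.59 with OA, and its adjusted p was 0.322. All SA arrays of Psmb10 lay above the OA arrays, as in 5.5% of all genes. Of the 43 other genes 2 rose, and 0 fell, with 3.3% of all genes risen and 2.37% fallen. They were Psmd5, by 0.38 ± 0.10 (SE, adjusted p = 0.0207), and Psmd11, which bridges the 19S lid and the core, by 0.36 ± 0.08 (adjusted p = 0.00608). The call of Psmd5 was lost without OA replicates 2 or 3 or SA replicates 1 or 4, where its change was 0.33 to 0.37 (adjusted p 0.0599 to 0.0843).

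At 20 h none of the 5 inducible genes was called with SA against OA in limma, and Psmb9 and Psme2 had an unadjusted p under 0.05. Psmb9 had levels of 8.53, 7.53, 8.28 and 8.56 with SA, against 8.61, 8.42, 8.68 and 8.76 with OA, a log2 change of -0.39 ± 0.15 (SE, adjusted p = 0.0792). Psme2 had 8.44, 7.94, 8.42 and 8.62 with SA, against 8.09, 8.07, 8.09 and 8.13 with OA, a change of 0.26 ± 0.11 (adjusted p = 0.113). In both genes replicate 2 of SA was the lowest array. Without it the change of Psmb9 was -0.16 (adjusted p = 0.374) and Psme2 was called higher, by 0.40 (adjusted p = 0.00188). Psmb8 changed by -0.10 (95% interval -0.31 to 0.10), Psmb10 by 0.05 (-0.29 to 0.38) and Psme1 by -0.08 (-0.26 to 0.10). Without replicate 2 of SA these changes were 0.01 for Psmb8, 0.26 for Psmb10 (adjusted p = 0.224) and -0.05 for Psme1, so that the sign of Psmb8 turned. Without SA replicate 1 or without SA replicate 4 Psmb9 was called lower, with changes of -0.49 (adjusted p = 0.0295) and -0.50 (adjusted p = 0.0242).

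Of the 43 other genes 9 rose and 0 fell with SA against OA at 20 h in limma, with 7.72% of all genes risen and 8.95% fallen, and 1 had an unadjusted p under 0.05 in the falling direction. The 9 were 4 of 11 non-ATPase subunits of the 19S cap (Psmd3, Psmd7, Psmd8, Psmd11), 2 of 7 constitutive beta subunits (Psmb3, Psmb5), 1 of 6 ATPases (Psmc6), 1 of 7 chaperones (Psmd5) and the activator Psme4. No alpha subunit was called (limma, 0 of 8, also at an unadjusted p under 0.05), and the changes of the 8 lay between -0.06 and 0.16. In 9 of the 43 every SA array was above every OA array, as in 9.73% of all genes. The median log2 change of the 43 was 0.07 and that of all genes 0.03. Leaving out single arrays gave 4 to 7 risen genes (4 without SA replicate 4, 5 without OA replicate 1 or SA replicates 1 or 3), and a fit of these groups alone gave 5. Without SA replicate 2 there were 7, and the median of the 43 was 0.16.

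Psmd11 and Psmd8 rose most. The change of Psmd11 was 0.47 ± 0.08 (SE, adjusted p = 1.00e-04). It had log2 levels of 8.027, 8.001, 7.998 and 8.022 with SA at 20 h, against 7.635, 7.504, 7.481 and 7.547 with OA at 20 h. Psmd8, a subunit of the 19S lid, had 10.63, 10.57, 10.66 and 10.64 with SA, against 10.18, 10.13, 10.14 and 10.17 with OA, also a change of 0.47 ± 0.08 (adjusted p = 6.55e-05). In both genes each acid's arrays lay close together and the groups were well apart. Psmd5 rose by 0.37 ± 0.10 (adjusted p = 0.00855), with 5.82, 5.67, 5.60 and 5.86 with SA, against 5.27, 5.46, 5.35 and 5.39 with OA. Psmc6, an ATPase of the 19S base, rose by 0.34 ± 0.08 (adjusted p = 0.00525), with 7.9995, 7.9545, 7.9885 and 8.1399 with SA, against 7.572, 7.7521, 7.6128 and 7.7958 with OA. These 4 were called under all 17 alternatives.

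Psmb5, the constitutive chymotrypsin-like subunit, rose by 0.34 ± 0.09 (SE, adjusted p = 0.0119). It had 9.88, 9.53, 9.82 and 10.04 with SA at 20 h, against 9.48, 9.40, 9.42 and 9.61 with OA at 20 h. The groups overlap through replicate 2 of SA, and without that array the rise was 0.44 (adjusted p = 7.54e-04). Without SA replicate 4 it was 0.27 and not called (adjusted p = 0.0647). The rises of Psmd3, Psmd7, Psmb3 and Psme4 lay between 0.22 and 0.29, with adjusted p between 0.0428 and 0.0497. All these rises are of SA over OA. Among these genes only Psmd8 was called higher with SA at 20 h than with the 5 h vehicle. Mean levels with SA at 20 h, OA at 20 h and BSA were 8.01, 7.54 and 7.76 for Psmd11. They were 5.74, 5.36 and 5.60 for Psmd5, and 8.02, 7.68 and 7.89 for Psmc6. For Psmd3 they were 6.77, 6.49 and 6.56, and for Psmd7 7.55, 7.29 and 7.55. For Psmb3 they were 9.36, 9.13 and 9.14, and for Psme4 7.58, 7.36 and 7.36. Psmd8 and Psmb5 are set against vehicle below. A second probe set of Psmb3 gave 0.28 for SA over OA at 20 h (adjusted p = 0.239 over all probe sets). Of the 7 risen genes with a promoter in the RefSeq table, 3 (Psmb5, Psmc6 and Psme4) held the antioxidant response element, whose shares are given above. Macrophage markers moved with this comparison: 8 of 9 fell (8.95% of all genes), and their part in the result was not tested.

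**Figure D3:**
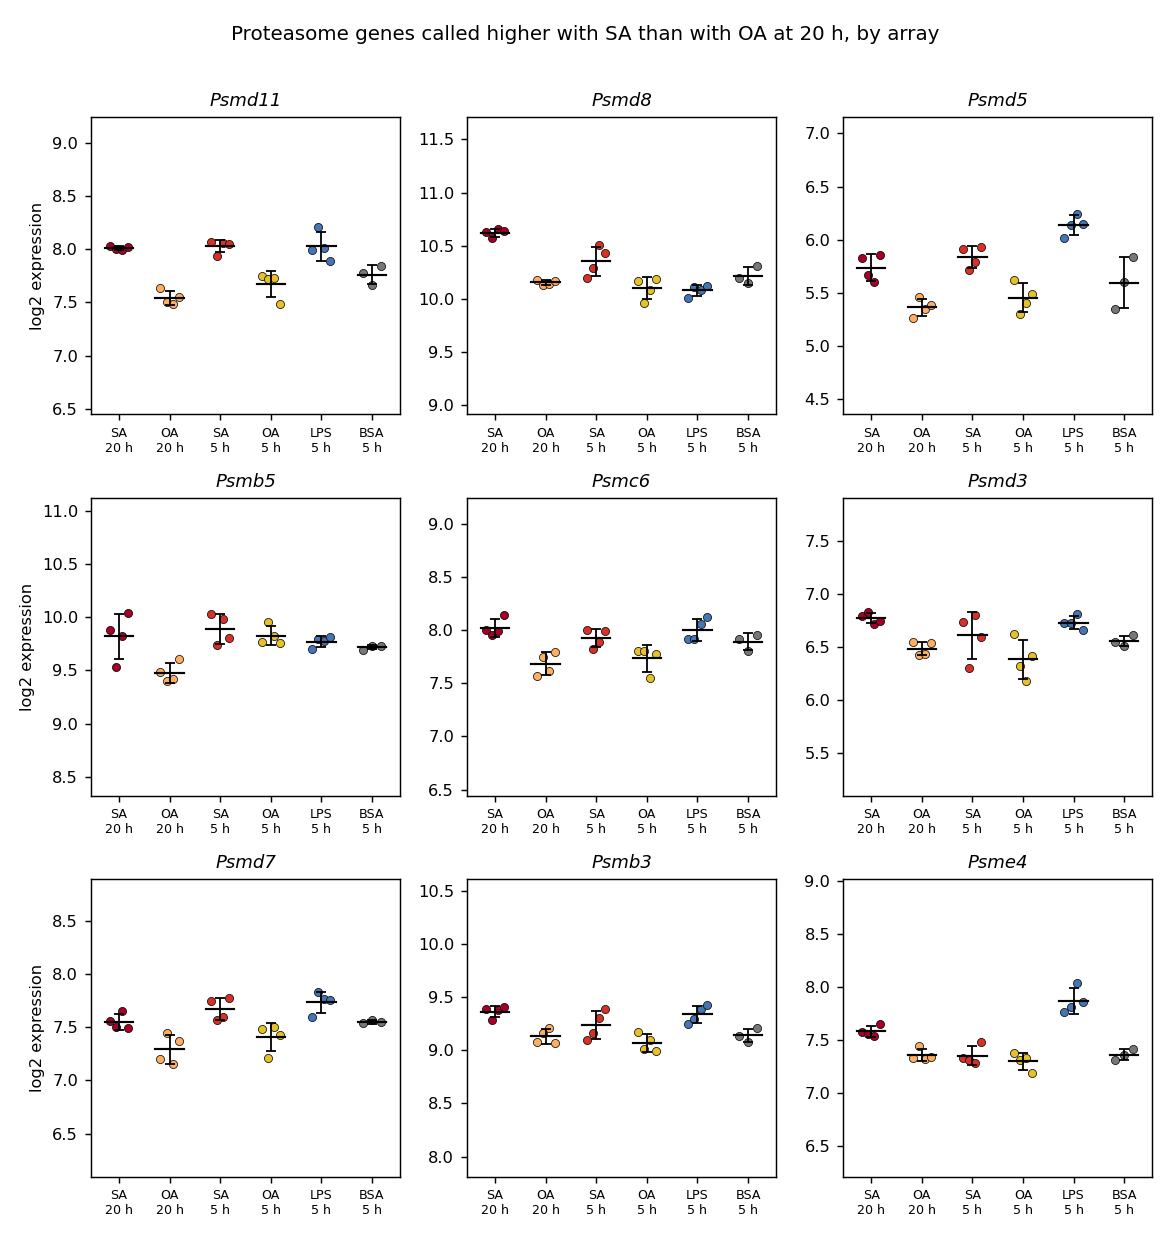
Log2 expression of the 9 proteasome genes called risen at 20 h for SA against OA, on each array (points), with group means (lines) and SD (bars), by treatment and time. In Psmd11 and Psmd8 all 4 SA arrays at 20 h lie above all 4 OA arrays, and in Psmb5 they overlap.

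Each immune catalytic subunit was next set against the constitutive subunit it replaces, as a log2 difference within each array, relative to the mean of the BSA arrays. With LPS the difference for Psmb8 over Psmb5 was 0.84, 0.74, 0.85 and 0.87, against -0.03, -0.04 and 0.07 with BSA. That for Psmb9 over Psmb6 was 0.95 higher on average with LPS, and that for Psmb10 over Psmb7 was 0.94 higher. In all 3 pairs each LPS array exceeded each BSA array. The exact two-sided permutation p was 0.0286 for each, the smallest that 4 against 3 arrays allow, and 0.0536 after adjustment over the 15 pair tests, so that none passes 0.05.

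With SA at 20 h the difference for Psmb8 over Psmb5 was -0.35, -0.40, -0.38 and -0.29, against 0.17, -0.02, 0.12 and 0.08 with OA at 20 h. The groups did not overlap, and the change was -0.44 ± 0.05 (SE, exact permutation p = 0.0286, adjusted p = 0.0536). For Psmb9 over Psmb6 the change was -0.46 ± 0.10 (the same p), and for Psmb10 over Psmb7 it was -0.01 ± 0.11 (exact permutation p = 0.971). Without replicate 2 of SA the changes were -0.43, -0.40 and 0.05. At 5 h, Psmb8 over Psmb5 was lower with SA than with BSA by 0.28 and lower with OA than with BSA by 0.24, at an exact permutation p of 0.0286 each. Those 2 changes use the same BSA arrays. Between SA and OA at 5 h, Psmb10 over Psmb7 differed by 0.25 (higher in SA), also at an exact permutation p of 0.0286 (adjusted p = 0.0536). Under quantile normalisation 9 of the 15 tests had an adjusted p of 0.0476. For tests at the smallest possible p, the adjusted value is set by how many of the 15 reach it. Passing 0.05 there thus adds nothing for a single pair.

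**Figure D4:**
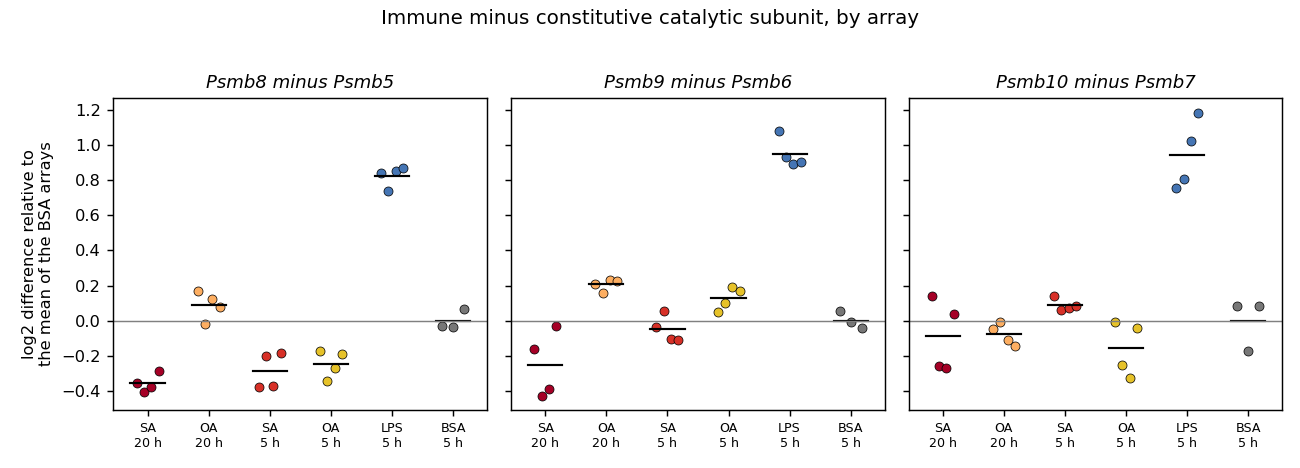
Log2 difference between each immune catalytic subunit and its constitutive counterpart on each array (points), relative to the mean of the BSA arrays, with group means (lines), by treatment and time. The LPS arrays lie between 0.74 and 1.18 in all 3 pairs, and SA at 20 h lies below OA at 20 h for Psmb8 over Psmb5 and Psmb9 over Psmb6.

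Levels at the 2 times were then compared within each acid. With SA, 5 of the 43 other genes were lower at 20 h than at 5 h and 2 were higher, with 6.57% of all genes fallen and 6.23% risen. Psmd10, the 19S chaperone gankyrin, had 6.92, 6.39, 7.02 and 7.23 at 20 h, against 7.54, 7.39, 7.58 and 7.62 at 5 h, and fell by 0.64 (adjusted p = 3.30e-04). Psma6 had 9.51, 9.28, 9.54 and 9.60 at 20 h, against 10.04, 10.07, 9.86 and 9.93 at 5 h, and fell by 0.49 (adjusted p = 7.77e-05). In both genes the 2 times did not overlap, as for 7.86% of all genes in that direction. Psma5 (-0.39), Psmc4 (-0.37) and Psmd1 (-0.35) also fell, and Psmd8 (0.27) and Psme4 (0.23) rose. Without replicate 2 of SA 3 genes fell, and Psma5 and Psmc4 were not among them (-0.24, adjusted p = 0.102, and -0.20, adjusted p = 0.127). Psma5 was also lost without SA replicates 1 or 3 of 5 h, and Psmc4 without replicates 1, 3 or 4 of 5 h. On all arrays a second probe set of Psma5 gave -0.47 (adjusted p = 0.00678 over all probe sets). The rise of Psmd8 was lost without replicates 1 or 2 of 5 h or replicate 3 of 20 h, and that of Psme4 when any of 7 of the 8 arrays was left out. None of the 5 inducible genes was called with SA (limma, 3 of 5 at an unadjusted p under 0.05, all lower at 20 h). Psmb9 was called lower without replicate 1 of 20 h (-0.49), and Psmb9 (-0.50) and Psme2 (-0.38) without replicate 4 of 20 h. Without replicate 2 of 20 h none was called, with adjusted p between 0.33 and 0.903. The changes were then -0.03 for Psmb8, -0.15 for Psmb9, -0.13 for Psmb10, -0.10 for Psme1 and -0.15 for Psme2. Neutrophil markers averaged 6.45 to 6.75 per array with SA at 20 h, against 5.80 to 6.29 with SA at 5 h, and 6 of 10 rose. Macrophage markers averaged 8.95 to 9.08 at 20 h, against 9.50 to 9.54 at 5 h, and 6 of 9 fell. Their part in these changes was not tested.

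With OA, Psma6 fell at 20 h against 5 h by 0.41 (adjusted p = 0.00215) and Psmb5 by 0.35 (adjusted p = 0.0323), the 2 falls among the 43, with 1.8% of all genes fallen and 2.58% risen. The call of Psmb5 was lost without 5 of the 8 single arrays (replicates 2 and 3 of 5 h and 1, 2 and 3 of 20 h). Of the inducible genes Psme2 fell, with 8.09, 8.07, 8.09 and 8.13 at 20 h, against 8.63, 8.44, 8.44 and 8.35 at 5 h (-0.37 ± 0.11 SE, adjusted p = 0.0483). Leaving out any single array ended that call. The interaction, the change between times in the difference of SA and OA, called none of the 48 genes in limma, where 1.58% of all genes were called risen and 3.4% fallen, and 4 of the 48 had an unadjusted p under 0.05. The rise of Psmb5 with SA over OA was 0.34 at 20 h and 0.06 at 5 h, an interaction of 0.28 (95% interval 0.00 to 0.55, adjusted p = 0.336). Psmd11 and Psmd5 were called at both times.

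Comparisons of 20 h acids with the 5 h vehicle combine treatment and time. With SA, Psmd8 was higher (0.41 ± 0.08 SE, adjusted p = 9.05e-04) and 6 of the 43 were lower (7.86% and 8.02% of all genes), from Psmd10 (-0.55) and Psma6 (-0.49) to Psma4 (-0.27). Leaving out single arrays gave 2 to 8 lower genes, with 2 without BSA replicate 2 or 3 and 3 without SA replicate 2. Without SA replicate 2 the falls of Psma5 and Psmf1 were no longer called (adjusted p = 0.138 and 0.0625). On all arrays a second probe set of Psma5 gave -0.41 (adjusted p = 0.0268 over all probe sets). In limma none of the 5 inducible genes was called for SA at 20 h against BSA. Psmb9 changed by -0.345, Psmb10 by -0.31, Psme1 by -0.16 and Psme2 by -0.27. Without SA replicate 2 these changes were -0.11, -0.09, -0.13 and -0.13. With OA, 3 of the 43 were lower (2.11% of all genes were fallen and 2.59% risen), Psmd10 (-0.54), Psma6 (-0.44) and Psmd1 (-0.36), and so was Psme2 (-0.53 ± 0.12 SE, adjusted p = 0.00507). A probe set that names both Psme2 and Psme2b gave -0.34 and was not called (adjusted p = 0.15 over all probe sets). Without BSA replicate 3 the calls of Psmd10 (-0.51, adjusted p = 0.0591) and Psmd1 (-0.29, adjusted p = 0.0637) were lost. In Psmd8 the 20 h SA arrays, at 10.57 to 10.66, were above every array of every other group. Psmb5 with OA at 20 h was 0.24 below vehicle (adjusted p = 0.25), and with SA at 20 h 0.10 above it (adjusted p = 0.633).

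Over the 6 groups Psmb8, Psmb9, Psmb10 and Psme2 had the widest range of all 48 genes, and Psme1 (0.73) came after Psma6, Psmd10 and Psmd5. The span between the highest and lowest group mean had a median of 1.19 for the 5, 0.29 for the 43 and 0.34 for all genes. The LPS group was highest for each of the 5, while the lowest group was SA at 20 h for Psmb8, Psmb9 and Psme1 and OA at 20 h for Psmb10 and Psme2. Psmb8 averaged 8.50 ± 0.07 with LPS, 7.51 ± 0.05 with SA at 5 h, 7.49 ± 0.03 with OA at 5 h, 7.47 ± 0.13 with OA at 20 h and 7.37 ± 0.26 with SA at 20 h (SD, n = 4 each), against 7.62 ± 0.07 with BSA (SD, n = 3). The BSA mean thus lay below that of LPS and above those of the acids. No fatty acid group was called against BSA in Psmb8, but SA at 20 h was called lower without its replicate 4 (-0.35, adjusted p = 0.0181) and with a replicate block (-0.29, adjusted p = 0.0494). Without replicate 2 of SA at 20 h the change of Psmb8 against BSA was -0.14 (adjusted p = 0.391). Psmb8 with SA at 20 h then lay 0.01 above OA at 20 h, so SA at 20 h was no longer its lowest group. Among the 43 the widest spans were those of Psma6 (0.82), Psmd10 (0.78) and Psmd5 (0.77), and the narrowest was that of the ATPase Psmc3 (0.08).

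The other genes of MHC class I presentation moved beside the inducible subunits with LPS. Of 17 listed genes 12 were analysed here, and 8 rose and 3 fell (9.22% and 13.2% of all genes), with a median of 0.64 against -0.02 for all genes. Tap1, which shares its promoter region with Psmb9, had 8.13, 7.95, 8.16 and 8.17 with LPS, against 5.52, 5.43 and 5.26 with BSA, and its log2 change of 2.70 ± 0.10 (SE, adjusted p = 3.12e-16) was larger than that of any of the 5. Tap2, its partner, rose by 1.47, Tapbpl, a peptide editor, by 1.06 and Nlrc5, the class I transactivator, by 0.88. Those that fell were the endoplasmic reticulum chaperones Canx (-0.38), Pdia3 (-0.37) and Calr (-0.25), and B2m, the class I light chain, was not called (-0.08). With SA none of the 12 was called against BSA at 5 h in limma, and 2 of them had an unadjusted p under 0.05. In Tap1 the change with SA was 0.09 (adjusted p = 0.788). At 20 h 5 of the 12 rose with SA against OA (7.72% of all genes): Tapbpl (0.71), Calr (0.46), Pdia3 (0.31), Erap1, the trimming peptidase (0.29), and Canx (0.23). Tap1 (0.07), Nlrc5 (0.24) and B2m (0.07) were not called there.

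Genes known to regulate the inducible subunits were examined next. Of 14 listed genes 12 were analysed here. With LPS 9 of the 12 rose (9.22% of all genes), among them Ifnb1, interferon beta (2.71), Irf1 (2.37), Stat2 (2.26) and Stat3 (0.93), and the receptor gene Ifngr1 fell (-0.43). Irf1, a factor known to bind immunoproteasome promoters, also rose with SA at 5 h. It had levels of 7.86, 7.73, 8.01 and 7.98 with SA and 8.91, 8.75, 8.83 and 8.82 with LPS, against 6.34, 6.41 and 6.62 with BSA. The log2 change of Irf1 was 1.44 ± 0.12 (SE, adjusted p = 2.49e-08) for SA against BSA, and its SA arrays lay between those of LPS and BSA. Ifnb1 (-0.09, adjusted p = 0.911) and Stat2 (0.09, adjusted p = 0.786) were not called with SA. Irf2, which is known to oppose Irf1, fell with SA (-0.49, adjusted p = 8.85e-04), with 7.99, 8.08, 8.30 and 8.11 with SA, against 8.56, 8.61 and 8.65 with BSA. With LPS, Irf2 had 8.99, 9.01, 8.92 and 8.92, above all BSA arrays. The receptor genes Ifngr1 (-0.28, adjusted p = 0.107) and Ifnar1 (-0.26, adjusted p = 0.0607) were not called. At 20 h Irf1 rose with SA against OA by 0.81, and 5 of the 12 were lower (8.95% of all genes), including Ifngr1 (-1.13), Irf2 (-0.45) and Ifnar1 (-0.44).

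**Figure D5:**
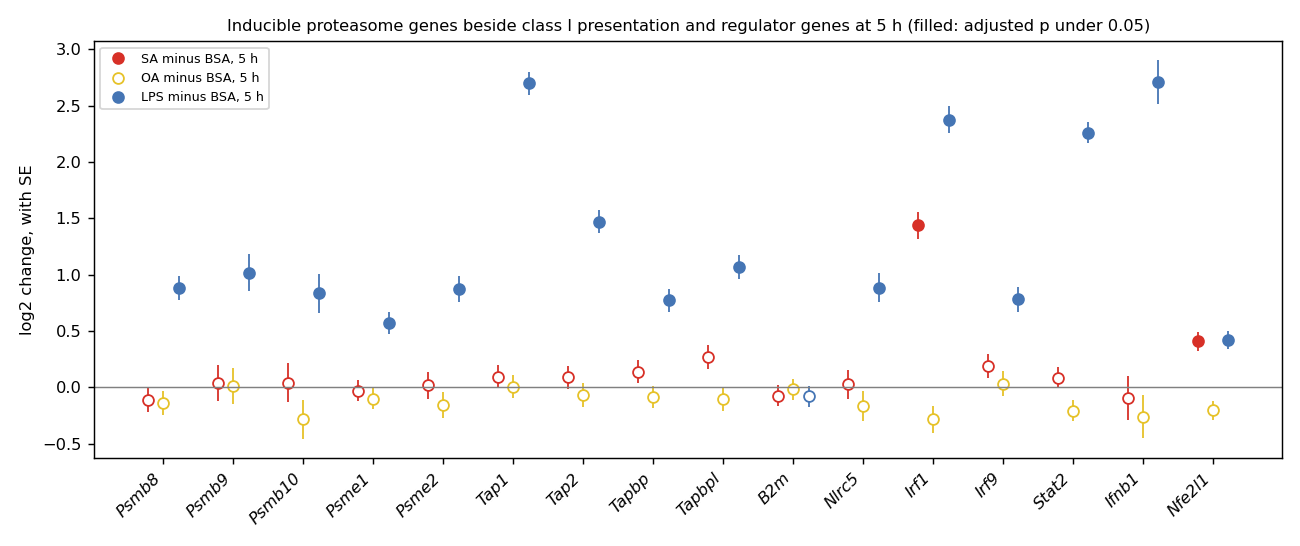
Log2 change with SE against BSA at 5 h for the inducible proteasome genes, genes of class I presentation and regulators, with SA in red, OA in yellow and LPS in blue, and filled points for adjusted p under 0.05. Of the genes plotted only Irf1 and Nfe2l1 have filled SA points, and none has a filled OA point.

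Nfe2l1, whose product NRF1 drives constitutive proteasome genes when the proteasome is overloaded, rose with SA at both times. It had levels of 8.38, 8.20, 8.32 and 8.24 with SA at 20 h, against 7.66, 7.74, 7.66 and 7.59 with OA at 20 h, a log2 change of 0.62 ± 0.08 (SE, adjusted p = 8.98e-07). At 5 h the change of Nfe2l1 was 0.61 for SA against OA (adjusted p = 5.33e-06), 0.41 for SA against BSA (adjusted p = 0.00392) and 0.42 for LPS against BSA (adjusted p = 3.58e-04). Its SA and OA arrays were apart at both times. Of 6 listed genes of this route 5 were analysed here, and at 20 h Vcp, the segregase that extracts NRF1 from the endoplasmic reticulum (0.32), and Keap1, the adaptor of NRF2 degradation (0.34), were also higher with SA than with OA. With LPS 4 of the 5 rose (9.22% of all genes), Keap1 (0.80) most.

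Partners of the proteasome outside the symbol rule gave 5 of 13 genes risen at 20 h for SA against OA and none fallen, with 7.72% and 8.95% of all genes. Zfand5, an activator of the 26S proteasome, rose by 0.66 ± 0.08 (SE, adjusted p = 3.03e-07), the shuttle factor Rad23b by 0.43, the cap-bound thioredoxin Txnl1 by 0.42 and the shuttle factor Ubqln4 by 0.39. Zfand5 also rose with SA at 5 h against OA (0.47) and against BSA (0.30, adjusted p = 0.0352). With LPS 2 of the 13 rose and 3 fell (9.22% and 13.2% of all genes), the stress-induced Zfand2a by 1.07 and the deubiquitinases Uchl5 by 0.49 and Usp14 by 0.25. Pomp, the chaperone that completes the core, was not called in any comparison, with -0.11 for LPS against BSA and -0.04 for SA against OA at 20 h. Of 6 listed genes of ubiquitin and its activation only Uba6 was analysed here, and it was not called in these comparisons.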

How the data were processed

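The authors deposited log2 values, a row for each probe set and a column for each array, made with RMA, per the submitters' processing notes, which also name limma. Versions and the role of limma are not given in the sources used here. RMA brings arrays to a common distribution, which can hide a change shared by most genes. Of 35556 probe sets, 21789 carried 1 symbol in the platform annotation, 1621 carried several, and 12146 had no entry there. The probe set of highest mean stood for each gene, leaving 19938 genes. A mean per group was fitted to all genes in R 4.3.3 (limma 3.58.1), using moderated two-sided tests and Benjamini-Hochberg adjustment over all genes of each of 11 comparisons. Genes were called at an adjusted p under 0.05, as risen or fallen. The fit was tested on simulated data. Catalytic pairs were compared by exact permutation tests, adjusted over 15 tests.

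The members and all gene and marker lists were chosen with earlier results of these data known. The 8 inducible and constitutive catalytic or PA28 genes, and Irf1, Nlrc5, Tap1, B2m, Pomp and Nfe2l1, were named by rule, as were up to 4 largest rises and falls per comparison and list. Other members are named where counts needed it, after their values were seen. RefSeq promoters (GRCm38.p6) were searched with Python 3.11.15, and figures drawn with matplotlib 3.10.9. Alternatives were other variance models, scalings, weights, filters, probe-set choices and subsets, blocking on replicate number, and omission of each array.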

Additional observations from a re-analysis of the deposited data

Results flagged for a closer look

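In a group of 4 arrays, an array was listed when its gap to the nearest other array, as a share of the group's range, passed Dixon's 95% critical value. This was run for the 20 proteasome genes named by rule. Of their 100 groups 7 met it, and 5 would by chance. They were Psmb6 at 9.67 and Psmc4 at 6.81 on replicate 2 of SA at 20 h, where the other arrays were at 10.31 to 10.41 and at 7.48 to 7.53. The others were Psmc6 at 7.55 on replicate 3 of OA at 5 h, Psmd10 at 7.46 on replicate 2 of LPS, Psmd11 at 7.94 on replicate 2 of SA at 5 h, Psmd11 at 7.49 on replicate 4 of OA at 5 h and Psme4 at 7.44 on replicate 2 of OA at 20 h. A probe set that names both Psme2b and Psme2, left out of the report's comparisons because it carries 2 symbols, was 0.99 higher with LPS than with BSA on the log2 scale (adjusted p = 1.03e-06 over all probe sets). Its change was 0.01 for SA against OA at 20 h, where that of Psme2 was 0.26, and -0.07 for OA at 20 h against 5 h (adjusted p = 0.852), where that of Psme2 was -0.37. For OA at 20 h against BSA its change was -0.34 (adjusted p = 0.15), where that of Psme2 was -0.53. Signal from Psme2 and the near copy Psme2b cannot be told apart on it.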

How the results depend on the processing

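No called gene changed sign under the alternatives run. The 5 inducible genes were called risen with LPS, and fallen with SA against LPS, under each alternative run for those comparisons. Of 2034 single-gene values 1926 kept their side of the threshold, 93 lost the call and 15 gained it. Values not called could change sign: 46 single-gene values did, as did 4 of the 156 pair values. Counts below are of genes called, and causes were not tested except where fewer arrays or genes were used by construction. Replicate numbers were not taken to pair the arrays: correlations of deviations ran from -0.124 to 0.201 over 35 same-numbered pairs of arrays, and the own number was best in 13. In SA against OA at 20 h it was best in 4 of 4 pairs, at 0.025 to 0.201, a hint from the data and not from the design. With a replicate block, SA against OA at 20 h gave 7 risen of the 43, SA at 20 h against 5 h gave 1 risen of the 43, and SA at 20 h against BSA gave 1 fallen of the 5 (Psmb8) and 2 risen of the 43. With a variance trend and robust moderation, SA against OA gave 1 risen of the 5 at 20 h and 6 risen of the 43 at 5 h, SA against BSA gave 1 risen, OA against BSA 29 genes in all, LPS against BSA 2 fallen of the 43, SA against LPS 4 risen, SA at 20 h against 5 h 1 fallen of the 5, SA at 20 h against BSA 4 risen and OA at 20 h against BSA 6 fallen. With arrays centred on the median, LPS against BSA gave 0 fallen, SA against LPS 0 risen and SA at 20 h against 5 h 1 risen of the 43. With quantile normalisation, SA against OA at 20 h gave 1 risen of the 5. The medians of the 5 became 0.77 for LPS against BSA and -0.76 for SA against LPS, those of the 43 became -0.074 and 0.0897, with 3 fallen and 5 risen of the 43, and SA at 20 h against BSA gave 4 risen and 3 fallen. With array quality weights, SA against OA at 20 h gave 1 risen of the 5, SA against BSA 1 risen of the 43, SA at 20 h against 5 h 1 risen and 3 fallen, the interaction 1 risen, SA at 20 h against BSA 4 risen, and OA at 20 h against BSA 1537 genes in all with 9 fallen of the 43. Without the dimmest 25% of genes SA at 20 h against BSA gave 3 risen of the 43, and with the mean of the probe sets or every probe set 2. With every probe set, OA at 20 h against 5 h gave 0 fallen of the 5. In fits of the compared groups alone, SA against OA gave 5 risen of the 43 at 20 h, and 660 genes with 0 risen of the 43 at 5 h. SA against BSA then gave 373 genes, OA against BSA 7, LPS against BSA 0 fallen of the 43, SA against LPS 1 risen, SA at 20 h against 5 h 0 risen and 3 fallen, OA at 20 h against 5 h 1 fallen, SA at 20 h against BSA 1 fallen of the 43 and OA at 20 h against BSA 2 fallen of the 5.

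Leaving out each array in turn gave, for genes called in all, 389 to 580 for SA against BSA and 7 to 16 for OA against BSA. Of the 43, it gave 0 to 1 fallen for LPS against BSA, 2 to 8 fallen for SA at 20 h against BSA, 1 to 3 fallen for OA at 20 h against BSA, 1 to 2 risen for SA against LPS, 1 to 3 risen for SA against OA at 5 h, 4 to 7 risen and 0 to 1 fallen for SA against OA at 20 h, 1 to 2 fallen for OA at 20 h against 5 h, and 0 to 2 risen and 3 to 7 fallen for SA at 20 h against 5 h. The interaction gave 0 to 1 risen, with medians of -0.0302 to 0.0916. Of the 5, it gave 0 to 2 fallen for SA at 20 h against BSA, 0 fallen for OA at 20 h against 5 h, 0 to 1 risen and 0 to 1 fallen for SA against OA at 20 h, and 0 to 2 fallen for SA at 20 h against 5 h. Groups of 3 or 4 arrays limit what smaller changes can show.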
